A study of Mus musculus with 60 samples.

Results

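The genes described here encode the subunits of voltage-gated calcium channels, voltage-gated sodium channels and the hyperpolarization-activated HCN channels. They were chosen by symbol: every gene named Cacna, Cacnb or Cacng with a number, Scn with a number and a or b, or Hcn with a number. The rule found 38 genes among the 13986 in the deposited tables of a study of mouse hippocampus after brief stress. They fell into 8 pore-forming calcium channel genes, 4 alpha2delta, 4 beta and 7 gamma subunit genes, 7 pore-forming (alpha) and 4 beta sodium channel genes, and 4 HCN genes.

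All groups were C57BL/6 wild-type mice at postnatal day 105. Whole, dorsal and ventral hippocampus were taken from Homecage mice, the controls, and from mice of the groups named Handling, Restraint and Swim, 45 min after treatment. Each of the 12 groups had 5 poly(A)-enriched RNA libraries, 60 in all. The authors' deposited tables give the mean count of each group, a log2 fold change, a p-value and an adjusted p for 10 comparisons of groups, and no values per library were used, so the spread shown here is the standard error implied by each deposited fold change and its p-value. The labels do not say whether dorsal and ventral libraries of the same number came from 1 mouse, and p-values measure only the spread between these libraries.

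Calcium channel pores open on depolarization and admit the calcium that drives transmitter release, dendritic spikes and calcium-dependent transcription, and their alpha2delta and beta subunits control how many channels reach the membrane and how they gate. Sodium channel alpha subunits carry the upstroke of the action potential, with beta subunits tuning their gating and anchoring them at the axon initial segment. HCN channels open on hyperpolarization, pass a mixed cation current and dampen synaptic summation in hippocampal pyramidal dendrites. Several gamma subunit genes encode transmembrane AMPA receptor regulatory proteins, which escort glutamate receptors rather than calcium channels.

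Of the 38 genes, 36 were listed in all 10 tables. Cacng6, a gamma subunit related to that of skeletal muscle, was not listed in the 3 treatment tables of ventral hippocampus, and Hcn4, the slowest-gating HCN channel, was not listed in that of dorsal Handling. The tables hold 13610 to 13784 genes each, and group totals of mean estimated counts ran from 19918572 to 25007858. Choroid plexus markers stood apart in some groups: their summed level, in estimated counts scaled to a group total of 1000000 (CPM), was 1378 CPM in dorsal Restraint and 1347 CPM in ventral Handling, against 51.8 to 140 CPM in the other 10 groups, with 6 to 12 of the 12 markers listed in a group. Reads of overlapping genes cannot be told apart without strand, which the sources used here do not give for the counting: Cacnb4 shares 16.0% of its exon bases with the opposite-strand transcript A430018G15Rik and Hcn3 17.1% with Pklr, while 34 of the channel genes share under 5% with any gene.

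Sequences upstream of the transcription start are shown for 2 pairs of neighbouring genes, Scn2b with Scn4b, whose regional ratios were unlike, and Scn7a with Scn9a, whose regional ratios were alike. Scn2b and Scn4b lie side by side on chromosome 9 and encode the sodium channel beta subunits that bind the alpha subunit through a disulfide bond. Scn7a and Scn9a are neighbours in a cluster of 5 sodium channel alpha genes on chromosome 2 that also holds Scn1a, Scn2a and Scn3a. The windows are the 250 bases before the RefSeq start on GRCm38.p6, printed 5′ to 3′ on the gene's strand, with CG dinucleotides in capitals: Scn2b at chr9:45117626-45117875 and Scn4b at chr9:45138374-45138623 on the plus strand, Scn7a at chr2:66784911-66785160 and Scn9a at chr2:66634963-66635212 on the minus strand. In GENCODE M21, Scn2b and Scn4b start earlier, at 45117782 and 45138395. Part of the Scn2b window and most of the Scn4b window thus lie within the annotated gene.
Scn2b: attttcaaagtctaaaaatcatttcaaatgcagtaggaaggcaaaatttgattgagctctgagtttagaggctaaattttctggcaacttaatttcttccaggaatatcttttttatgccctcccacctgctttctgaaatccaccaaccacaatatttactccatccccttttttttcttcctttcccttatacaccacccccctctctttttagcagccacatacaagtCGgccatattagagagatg
Scn4b: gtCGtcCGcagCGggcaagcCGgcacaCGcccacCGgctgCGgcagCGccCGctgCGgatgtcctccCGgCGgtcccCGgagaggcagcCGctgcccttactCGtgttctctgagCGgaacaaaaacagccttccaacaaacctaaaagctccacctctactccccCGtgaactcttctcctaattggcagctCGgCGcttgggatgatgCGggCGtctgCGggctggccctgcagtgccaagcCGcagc
Scn7a: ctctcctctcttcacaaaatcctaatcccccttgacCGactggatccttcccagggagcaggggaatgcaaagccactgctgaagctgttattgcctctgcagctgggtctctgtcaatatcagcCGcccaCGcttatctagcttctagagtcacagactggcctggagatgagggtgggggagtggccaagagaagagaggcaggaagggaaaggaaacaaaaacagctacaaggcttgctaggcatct
Scn9a: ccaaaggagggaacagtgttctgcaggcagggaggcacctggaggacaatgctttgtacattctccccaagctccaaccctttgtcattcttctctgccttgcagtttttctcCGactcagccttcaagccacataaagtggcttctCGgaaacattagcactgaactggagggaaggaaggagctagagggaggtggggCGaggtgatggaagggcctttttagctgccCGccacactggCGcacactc

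The upstream windows of Scn2b and Scn4b differed in base composition, and those of Scn7a and Scn9a were close. That of Scn4b held 23 CG dinucleotides and was 66.0% G or C, whereas that of Scn2b held 1 and was 38.4% G or C. Those of Scn7a and Scn9a held 3 and 5 CG dinucleotides and were 53.2% and 54.4% G or C. Scn1a and Scn2a of the same cluster, both higher in ventral Homecage hippocampus, had windows of 46.8% G or C, and of 29.6% and 53.2%. Whether base composition goes with the regional ratio was not tested. RefSeq windows were matched for 27 of the 38 genes, with 38 windows in all. The GC box, searched as GGGCGG on both strands, was found in 39.5% of the channel windows and in 32.7% of 32851 windows of all genes, and Scn7a alone held it among the 4 printed. The TATA box, searched as TATAAA, was found in 5.26% against 12.4%, and TGACG, the core of the cAMP response element, in 13.2% against 17.8%, and neither is in the 4 windows printed. These matches describe the letters of the windows only.

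Levels were compared between genes as the group's mean estimated count per kilobase of the longest annotated transcript at that scale (CPM per kilobase), called the length-scaled level here. The order of genes by this level depends on the transcript length used. In dorsal hippocampus of Homecage mice, the highest length-scaled levels among calcium channel pores were those of Cacna1e (R-type) at 48.3, Cacna1a (P/Q-type, the main presynaptic channel) at 30.4 and Cacna1h (T-type, opened by small depolarizations) at 29.6. The other T-type genes, Cacna1g and Cacna1i, stood at 9.67 and 8.22. Among the accessory genes, Cacna2d3 led the alpha2delta genes at 35.6, ahead of Cacna2d1 at 26.2 and Cacna2d2 at 4.98, while Cacnb3 led the beta genes at 79.9, ahead of Cacnb1 at 46.2 and Cacnb4 at 15.3. In CPM, not scaled by length, Cacna2d1 stood above Cacna2d3 in dorsal Homecage hippocampus (195 and 132). Cacng7, Cacng8 and Cacng3, all AMPA receptor regulators, had length-scaled levels of 57.3, 55.3 and 23.2.

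Sodium channel transcripts were dominated by the genes of central neurons. Scn8a, the alpha subunit of mature axon initial segments, had a length-scaled level of 53.4 in dorsal Homecage hippocampus, Scn2a one of 38.9 and Scn1a, the alpha subunit most tied to inhibitory neurons, one of 14.5. Scn7a and Scn9a, best known from glia and peripheral sensory neurons, had length-scaled levels of 0.216 and 0.155. Of the beta genes, Scn3b stood at 104 and Scn2b at 63.6. Hcn2 had a length-scaled level of 27.5 in dorsal and 23.6 in ventral Homecage hippocampus, Hcn3 levels of 2.91 and 3.65 and Hcn4 levels of 0.157 and 0.237.

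**Figure D1:**
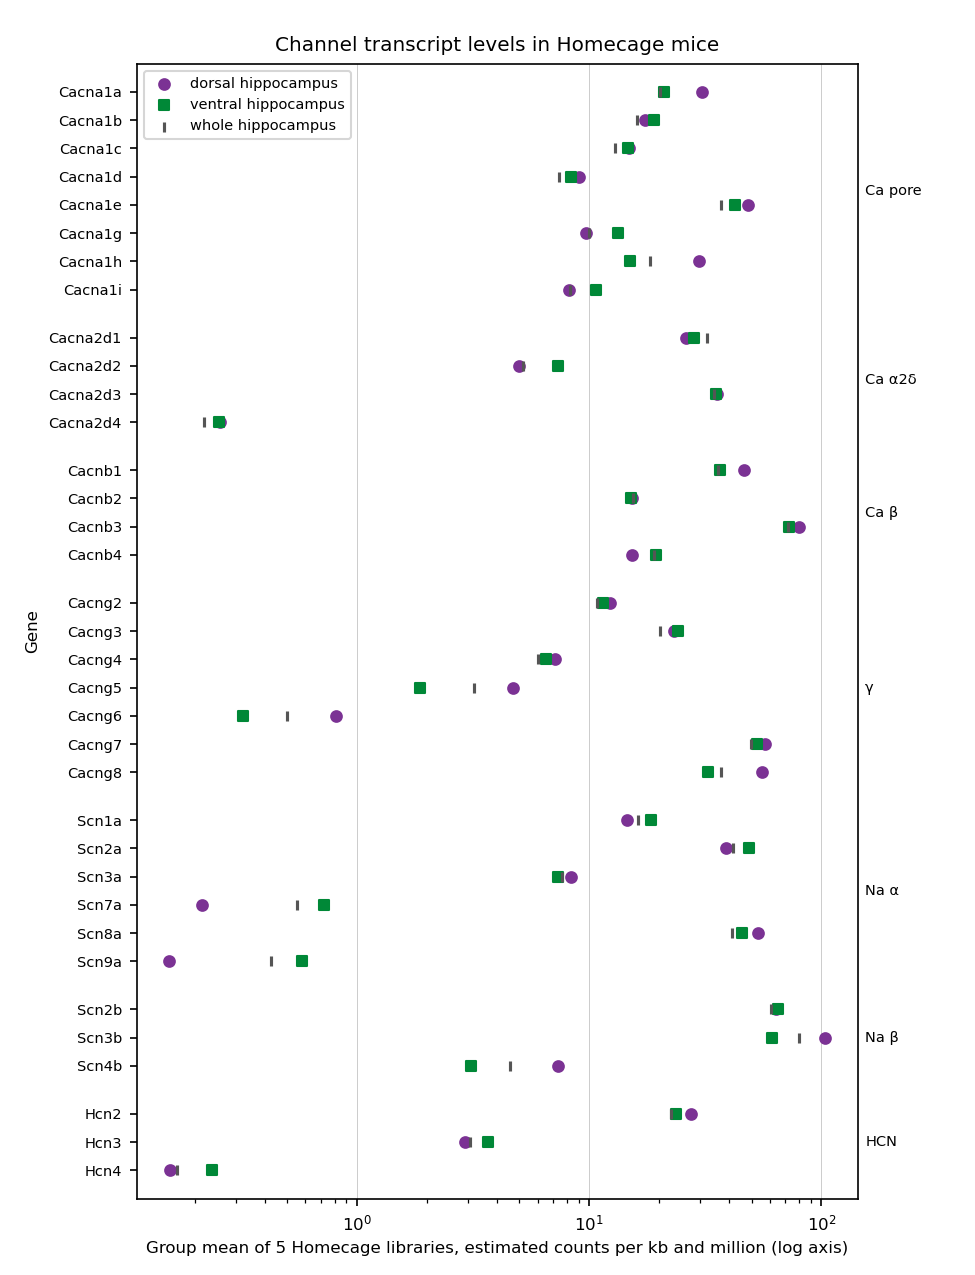
Length-scaled level (CPM per kilobase, log axis) of the channel genes reported by name in the 3 Homecage groups, 1 point per group mean; no error can be drawn because the tables give means only. Scn3b stands at 104 in dorsal hippocampus, and the points of Scn7a, Scn9a, Cacng5 and Scn4b lie far apart between dorsal and ventral hippocampus.

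The first question was how channel transcripts differ between ventral and dorsal hippocampus in Homecage mice. In the authors' deposited table, 27 of the 38 channel genes passed at an adjusted p under 0.05, 12 higher in ventral and 15 higher in dorsal hippocampus; 38.4% of all genes in that table passed, 18.4% higher and 20.0% lower in ventral. The median size of the log2 difference was 0.29 for the channel genes and 0.17 for all genes. Of the gamma genes, 3 of 7 were higher in dorsal hippocampus and none in ventral. The median mean count of the channel genes was 2141 in that table, against 631 for all genes. Transcript GC content moved with the regional ratio over all genes (Spearman's rho -0.37). Once a smooth trend with GC content was subtracted, 24 channel genes passed, 13 higher and 11 lower in ventral hippocampus. Of these, 23 were among the 27, but Hcn2 had turned from lower to higher. Of all genes 31.7% then passed, 17.5% higher and 14.2% lower.

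Among the pore-forming calcium channel genes, the 3 T-type genes split between the regions. Cacna1h had 244, 243, 217 and 215 CPM in dorsal Homecage, Handling, Restraint and Swim and 123, 144, 150 and 156 in the same conditions of ventral hippocampus, so every dorsal group lay above every ventral group. Its log2 ventral over dorsal ratio in the authors' deposited table was -1.03 (implied SE 0.104, adjusted p 1.87e-21), 2.04-fold lower in ventral hippocampus. Cacna1g had 81.0, 73.8, 69.1 and 72.1 CPM in the dorsal groups and 111, 122, 123 and 128 in the ventral groups, in the same order of conditions. The log2 ratio of Cacna1g in the authors' deposited table was 0.41 (implied SE 0.0824, adjusted p 4.95e-06), and that of Cacna1i was 0.34 (implied SE 0.0672, adjusted p 4.79e-06). For Cacna1g and Cacna1i, every ventral group lay above every dorsal group.

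Of the other calcium channel pores, Cacna1a, Cacna1e and Cacna1d passed as lower in ventral hippocampus. Cacna1a was 1.49-fold lower in ventral hippocampus in the authors' deposited table, with a log2 ratio of -0.58 (implied SE 0.0591, adjusted p 3.88e-21). Cacna1e, the R-type channel of dendrites and spines, and Cacna1d, an L-type channel that opens at low voltages, were lower by less in the authors' deposited table, at -0.23 (adjusted p 0.00514) and -0.16 (adjusted p 0.0393). Cacna1b (N-type) and Cacna1c (the major L-type channel of brain) did not pass in the authors' deposited table, with log2 ratios of 0.09 and -0.05, and Cacna1b passed as higher in ventral hippocampus once the GC trend was subtracted (0.17, adjusted p 0.0109).

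Of the accessory calcium channel genes, Cacna2d2 alone among the alpha2delta genes passed, at a log2 ratio of 0.51 in the authors' deposited table (implied SE 0.0862, adjusted p 3.47e-08). It had 42.5 CPM in ventral and 28.9 in dorsal Homecage hippocampus, whereas Cacna2d1, Cacna2d3 and Cacna2d4 lay within 0.08 of 0 on the log2 scale. Among the beta genes, Cacnb4 was higher in ventral hippocampus in the authors' deposited table, by 0.30 (adjusted p 0.000387), Cacnb1 was lower at -0.38 (adjusted p 0.000241) and Cacnb3 was lower at -0.18 (adjusted p 0.0402). The calls of all 3 beta genes were lost once the trend with transcript GC content was subtracted, with adjusted p of 0.0527, 0.254 and 0.568.

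Among the gamma genes, the largest regional ratios were those of Cacng5, Cacng6 and Cacng8. Cacng5 had 17.4 to 19.7 CPM in the 4 dorsal groups and 6.94 to 7.76 in the 4 ventral groups, and its log2 ratio in the authors' deposited table was -1.36 (implied SE 0.136, adjusted p 4.96e-22). Cacng8, a regulator of AMPA receptors that is concentrated in hippocampus, had 87.2 to 105 CPM in the dorsal groups and 61.4 to 72.4 in the ventral groups. Its log2 ratio in the authors' deposited table was -0.82 (implied SE 0.0809, adjusted p 2.38e-22), which became -0.39 with the GC trend taken out. Cacng6, with 1.61 CPM in dorsal and 0.640 in ventral Homecage hippocampus, was also lower, at -1.36 in the authors' deposited table (implied SE 0.246, adjusted p 2.95e-07). Cacng7 and Cacng8 are neighbours on chromosome 7 with Cacng6, yet Cacng7 did not pass in the authors' deposited table (-0.16, adjusted p 0.0723).

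The sodium channel alpha genes held the largest ventral excess. Scn9a had 1.53, 1.24, 1.17 and 1.45 CPM in dorsal Homecage, Handling, Restraint and Swim and 5.73, 5.08, 5.15 and 4.80 in ventral hippocampus. That is 3.64-fold higher in ventral Homecage hippocampus in the authors' deposited table, a log2 ratio of 1.86 (implied SE 0.162, adjusted p 9.77e-29). Scn7a, whose product senses extracellular sodium rather than voltage, had 1.36 to 1.70 CPM in the dorsal groups and 5.18 to 5.49 in the ventral groups. Its log2 ratio in the authors' deposited table was 1.73 (implied SE 0.220, adjusted p 8.17e-14). Every ventral group lay above every dorsal group for both genes, which are scarce in all of them.

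Differences in the abundant alpha genes were smaller and ran in both directions. Scn2a and Scn1a were higher in ventral hippocampus in the authors' deposited table, by 0.29 (adjusted p 0.000435) and 0.32 (adjusted p 9.67e-05). Scn8a and Scn3a, the latter best known from developing brain, were lower in the authors' deposited table, at -0.28 (adjusted p 1.76e-05) and -0.23 (adjusted p 0.0168). In length-scaled level Scn8a stood above Scn2a in dorsal Homecage hippocampus (53.4 and 38.9) and below it in ventral (45.3 and 48.9). In CPM, not scaled by length, Scn8a stood above Scn2a in both regions (610 and 348 in dorsal, 518 and 437 in ventral). The ventral order of these genes thus depends on the length scaling. The ventral gap in length-scaled level was small and could not be tested, since the tables compare groups and not genes.

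Among the sodium channel beta genes, Scn4b and Scn3b were higher in dorsal hippocampus. Scn4b, the beta subunit linked to resurgent sodium current, had 36.5, 34.3, 37.3 and 37.6 CPM in dorsal Homecage, Handling, Restraint and Swim and 15.5, 15.0, 11.8 and 13.3 in ventral hippocampus. Its log2 ratio in the authors' deposited table was -1.29 (implied SE 0.0860), with the lowest adjusted p of the channel genes at 2.23e-48. Scn3b had 431 to 453 CPM in the dorsal groups and 254 to 273 in the ventral groups. In the authors' deposited table Scn3b was lower by a log2 ratio of -0.80 (implied SE 0.0683, adjusted p 4.34e-30). Scn2b, the neighbour of Scn4b, had a log2 ratio of -0.01 in the authors' deposited table (implied SE 0.0534, adjusted p 0.908).

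The HCN genes named here ran in both directions. Hcn3 and Hcn4 were higher in ventral hippocampus in the authors' deposited table, at 0.28 (adjusted p 0.0462) and 0.55 (adjusted p 0.0379), with Hcn4 at only 0.959 and 1.45 CPM in dorsal and ventral Homecage hippocampus. Hcn2, a strongly cAMP-sensitive member, went the other way in the authors' deposited table, at -0.27 (implied SE 0.0786, adjusted p 0.00276). That direction turned to 0.20 (adjusted p 0.0350) once the GC trend was subtracted; at 65.2% its transcripts are the richest in G and C of the channel genes, and 0.265% of all genes lie beyond it, where the trend rests on few genes.

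**Figure D2:**
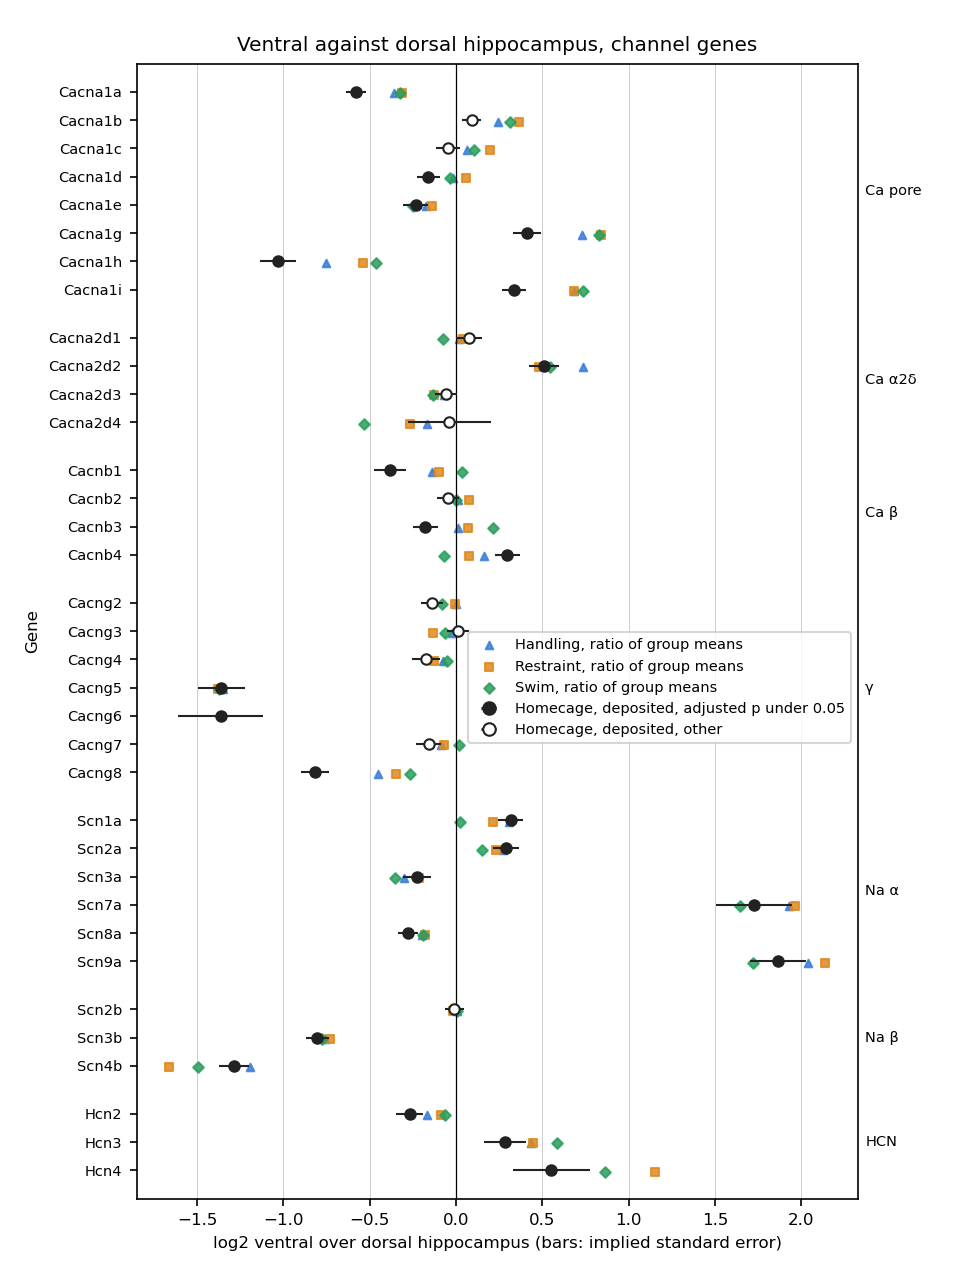
Log2 ventral over dorsal ratio (x axis) of the channel genes reported by name: black circles with implied standard errors are the deposited Homecage comparison, filled where the adjusted p is under 0.05, and coloured points are ratios of group means in Handling, Restraint and Swim mice. Scn9a and Scn7a lie between 1.64 and 2.14 in every condition and Cacng5 and Scn4b at or below -1.19, while points of Cacnb3 and Cacnb4 fall on either side of 0.

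The same regional direction could be looked for in treated mice, whose libraries are not those of the Homecage groups. Of the 27 genes that passed in Homecage mice, 25 were measured in every condition. Of these, 24 had the same direction in Handling, 23 in Restraint and 22 in Swim mice by the ratio of group means, and 21 in all 3. The exceptions were Cacna1d and the beta subunit genes Cacnb1, Cacnb3 and Cacnb4. Of the 11 channel genes that did not pass in Homecage mice, 7, 8 and 6 kept their direction in Handling, Restraint and Swim mice. In all 3 treated groups 5 of the 11 did. The share of all genes that kept their direction was not counted. Some ratios were close to equal across conditions, such as Scn3b (-0.78 to -0.73) and Cacng5 (-1.38 to -1.33). Others were nearer to 0 in Swim than in Homecage mice, as Cacna1h (-0.46 and -0.99) and Cacng8 (-0.27 and -0.77), or farther from it, as Cacna1g (0.83 and 0.46), Cacna1i (0.74 and 0.39) and Scn4b (-1.50 and -1.24). Whole hippocampus lay between the regions in Homecage mice for 20 of the 27 genes and below both for the other 7.

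Markers of cell types and neighbouring tissue also differed between the regions. Their counts stand against 18.4% of all genes that passed as higher and 20.0% as lower in ventral Homecage hippocampus. All 6 dentate granule cell markers tested were lower in ventral Homecage hippocampus, with a median log2 ratio of -1.39, and their summed level was 639 to 692 CPM over the dorsal groups and 235 to 279 over the ventral groups. All 8 oligodendrocyte markers were lower, with sums of 4639 to 5368 and 3132 to 3396 CPM, and 5 of 6 CA2 and CA3 markers were lower, with sums of 421 to 455 and 326 to 353. Of the microglia markers 5 of 6 were lower, with sums of 262 to 279 and 231 to 239 CPM. In the other direction, 4 of 7 interneuron markers were higher in ventral hippocampus (sums of 670 to 697 CPM in dorsal and 788 to 823 in ventral groups) and 4 of 6 meningeal fibroblast markers (53.8 to 87.1 and 130 to 161). The meningeal fibroblast markers were uneven: Dcn was at a log2 ratio of 3.57, and Slc6a13, Lum and Igf2 were at 0.73, 0.61 and 0.47. The collagen genes Col1a1 and Col1a2 did not pass (0.19 and 0.47). Thalamus markers (4 of 8 higher, 1 lower) had sums of 121 to 135 and 135 to 165 CPM, and neocortex markers (4 of 5 higher, 1 lower) sums of 153 to 164 and 162 to 183. The 4 general neuron markers had sums of 3492 to 3654 CPM in dorsal and 3951 to 4154 in ventral groups. Of 7 genes used to check the hippocampus label, 6 were lower in ventral hippocampus, with sums of 1576 to 1651 and 941 to 1031 CPM, and all of these lists had every marker listed in every dorsal and ventral group. The part of these markers in the channel ratios was not tested. In tissue RNA of this kind, fewer cells of a type and less RNA per cell cannot be told apart.

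Transcripts of proteins that bind or position the channels were counted in the same way, against 18.4% of all genes higher and 20.0% lower. Of 12 sodium channel partner genes, 5 were higher and 4 lower in ventral hippocampus in the authors' deposited table. Fgf11 and Fgf12, intracellular fibroblast growth factors that bind sodium channel tails, were higher there at 0.70 and 0.78 in the authors' deposited table (adjusted p 3.40e-22 and 1.16e-19). Nedd4l, a ubiquitin ligase that removes sodium channels, and Sptbn4, the spectrin of the axon initial segment, were lower in the authors' deposited table at -0.44 and -0.47 (adjusted p 1.60e-11 and 8.14e-06), although with the GC trend taken out Sptbn4 was at -0.08 (adjusted p 0.587).

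Of 15 calcium channel partners, 4 were higher and 6 lower. Stac, an adaptor of L-type channels, was at -1.56 in the authors' deposited table (adjusted p 2.24e-21). Cachd1, an alpha2delta-like protein, was at -0.81 in the authors' deposited table (adjusted p 2.92e-31), as was Rimbp2, which ties calcium channels to release sites, at -0.68 (adjusted p 5.88e-35). Rims2, another release-site scaffold, was higher in ventral hippocampus at 0.57 in the authors' deposited table (adjusted p 2.05e-17). Of 4 genes of the sodium leak channel complex, the pore gene Nalcn was higher and Fam155a lower in the authors' deposited table (0.50 and -0.19, adjusted p 1.98e-13 and 0.00572). Of 5 HCN partners 1 passed, against 38.4% of all genes: Kctd3 was lower in the authors' deposited table (-0.16, adjusted p 0.0130).

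The second question was whether Handling, Restraint or Swim was followed by a change in channel transcripts 45 min later. Over the 9 treatment comparisons, 9 of 338 tests of channel genes passed, all in ventral hippocampus. The Homecage group of a region is the control of its 3 treatment tables, so these tables are not independent, and the Homecage groups of dorsal and ventral hippocampus also form the regional table.

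In whole hippocampus no channel gene passed after Handling, Restraint or Swim in the authors' deposited tables, where 0.395%, 0.541% and 0.395% of all genes did. At an unadjusted p under 0.05, 2, 0 and 2 of the 38 genes did, against 5.06%, 3.92% and 5.20% of all genes. The largest changes in size were those of scarce genes: Scn9a, at 2.99 to 4.20 CPM in whole hippocampus, had a log2 change of -0.47 after Swim in the authors' deposited table (implied SE 0.192, adjusted p 0.819). Among the abundant genes Cacna1e had one of -0.27 after Swim in the authors' deposited table (implied SE 0.143, adjusted p 0.819).

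In dorsal hippocampus no channel gene passed either, against 0.125%, 0.616% and 0.447% of all genes after Handling, Restraint and Swim in the authors' deposited tables. At an unadjusted p under 0.05, 1 of 37, 6 of 38 and 8 of 38 did, against 2.84%, 9.60% and 11.2% of all genes. Cacng8 came nearest in the authors' deposited tables, with log2 changes of -0.23 after Restraint (implied SE 0.0694, adjusted p 0.0909) and -0.28 after Swim (implied SE 0.0847, adjusted p 0.118). Its means in dorsal hippocampus were 105, 93.2, 89.4 and 87.2 CPM in Homecage, Handling, Restraint and Swim mice, with the Homecage group highest.

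In ventral hippocampus no channel gene passed after Handling, where 0.856% of all genes did; 2 of 37 channel genes and 7.28% of all genes had an unadjusted p under 0.05. After Restraint, 2 of 37 passed, against 2.39% of all genes. Cacna1h rose by 0.30 on the log2 scale in the authors' deposited table (implied SE 0.0798, adjusted p 0.0163), and Cacnb4, a beta subunit gene in which mutations cause epilepsy and ataxia in mice, fell by 0.22 (implied SE 0.0594, adjusted p 0.0173). The Cacnb4 mean was 159 CPM in ventral Homecage, 141 in Handling, 135 in Restraint and 136 in Swim mice, with the Homecage group highest. With the GC trend taken out neither passed (0.19, adjusted p 0.330, and -0.16, adjusted p 0.172), and 1.75% of all genes did.

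After Swim, 7 of 37 channel genes passed in ventral hippocampus, 6 higher and 1 lower, against 6.94% of all genes (4.65% higher and 2.29% lower). All 3 T-type calcium channel genes rose in the authors' deposited table: Cacna1h by 0.35 (implied SE 0.0840, adjusted p 0.00331), Cacna1i by 0.22 (implied SE 0.0537, adjusted p 0.00480) and Cacna1g by 0.21 (implied SE 0.0589, adjusted p 0.0132). In the authors' deposited table Cacng8 rose by 0.24, Cacnb1 by 0.23 and Cacnb3 by 0.20 (adjusted p 0.0177, 0.0474 and 0.00812). In the authors' deposited table Cacnb4 fell by 0.21 (adjusted p 0.0157). No sodium channel or HCN gene passed in the authors' deposited table; Scn1a had a log2 change of -0.13 there (adjusted p 0.0798). The 6 higher genes had transcripts of 58.1 to 64.1% G and C, and Cacnb4, the lower one, 39.7%.

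**Figure D3:**
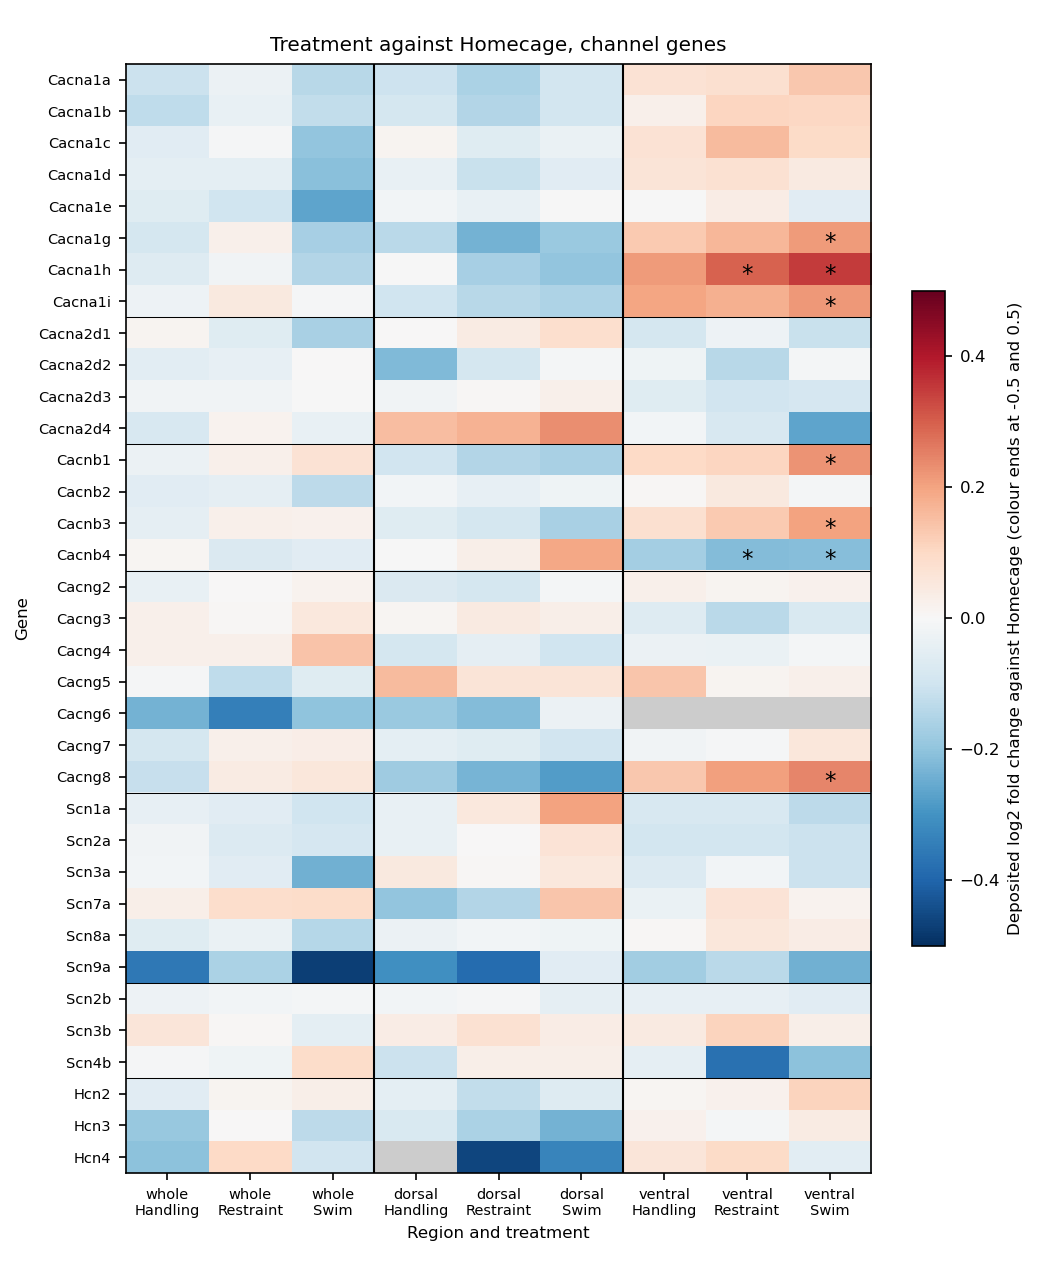
Deposited log2 fold change against Homecage (colour) of the channel genes reported by name (rows) in the 9 treatment comparisons (columns, by region), with a star where the adjusted p is under 0.05 and grey where the gene is not listed. The 9 stars all lie in ventral Restraint and Swim, and Cacna1g, Cacna1h, Cacna1i and Cacng8 are blue in dorsal Restraint and Swim and red in the ventral columns.

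Transcript GC content moved with these changes over all genes. In ventral Swim, Spearman's rho between GC content and the deposited log2 fold change was 0.70 over 13758 genes and 0.74 over the 37 channel genes; in dorsal Swim it had the opposite sign, -0.60 and -0.74. All genes of a table share the same libraries and scaling, so these values describe the tables. After a smooth trend with GC content was subtracted, none of the 7 channel genes passed in ventral Swim: Cacna1h was at 0.15 (adjusted p 0.772), Cacna1g at 0.07 (adjusted p 0.942) and Cacng8 at -0.06 (adjusted p 0.972). Hcn2 then passed as lower, at -0.22 (adjusted p 0.00123), with 0.800% of all genes called, although its change in the authors' deposited table was 0.11 (adjusted p 0.134) and it lies at the end of the GC scale. The part of GC content in these changes was not tested.

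**Figure D4:**
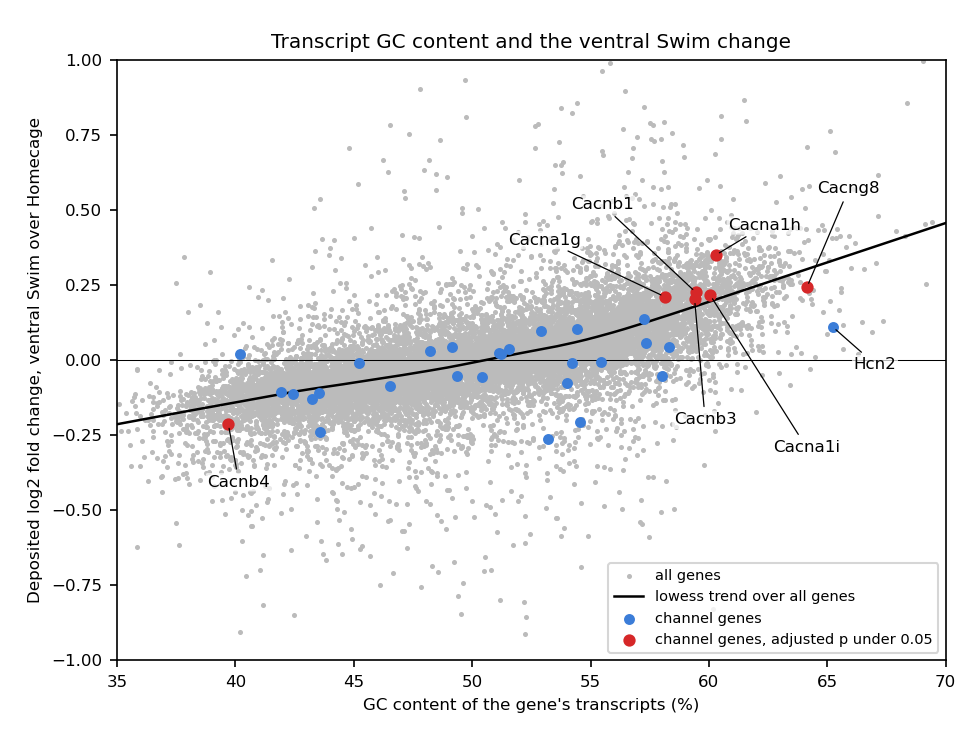
GC content of each gene's transcripts (x axis, percent) against the deposited log2 fold change of ventral Swim over Homecage (y axis, shown from -1 to 1, so genes beyond are not drawn); grey points are all genes, the line is the lowess trend. The 6 channel genes that rose lie near the trend between 58.1 and 64.1% GC, Cacnb4 lies near it at 39.7%, and Hcn2 lies below it at 65.2%.

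Tissue markers moved in the same ventral comparisons. Of all genes, 2.39% passed after Restraint and 6.94% after Swim. After Restraint, 4 of 7 genes used to check the hippocampus label were higher (Grik4, Neurod2, Prox1 and Zbtb20, median of the list 0.24), and the sum of the list went from 941 CPM in Homecage to 1031. After Swim, 3 of 8 thalamus markers were lower (Ntng1, Rora and Slc17a6, median of the list -0.31), and the sum of the list went from 165 CPM in Homecage to 135. Markers of other lists passed too. After Restraint, Mag alone among the 8 oligodendrocyte markers passed, as higher (0.17). F5 alone among the 6 choroid plexus markers listed there also passed as higher (0.68). Cspg4 (0.21) and Olig2 (0.33) passed as higher after Swim, and no other of the 6 oligodendrocyte precursor markers did. The part of these markers in the channel changes was not tested.

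Some partner genes passed in the same ventral comparisons, where 2.39% of all genes did after Restraint and 6.94% after Swim. Fgf12 in the authors' deposited tables fell by 0.29 after Restraint (adjusted p 3.08e-05) and by 0.26 after Swim (adjusted p 0.00301); after GC subtraction its Restraint change was -0.26 (adjusted p 0.000539) and its Swim change -0.17 (adjusted p 0.30). Gem, a small GTPase induced by activity that lowers calcium channel number at the membrane, rose by 0.78 after Restraint in the authors' deposited table (implied SE 0.200, adjusted p 0.00934) and by 0.59 after Swim (adjusted p 0.0458). With GC subtraction Gem was at 0.81 (adjusted p 0.00733) and 0.66 (adjusted p 0.0876). These were 1 of 12 sodium channel partners and, with Cachd1 (0.22, adjusted p 0.0273 in the authors' deposited table), 2 of 15 calcium channel partners after Restraint.

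After Swim, 3 of 12 sodium channel partners passed, with Sptbn4 higher by 0.27 and Fgf14 lower by 0.20 in the authors' deposited table beside Fgf12 (adjusted p 0.00343 and 0.0449). Cabp1, a calcium-binding regulator of calcium channels, rose in the authors' deposited table by 0.19 (adjusted p 0.0368), the other of 2 of 15 calcium channel partners with Gem. In the authors' deposited table of dorsal Restraint Sptbn4 fell by 0.37 (adjusted p 0.0182) and no other partner passed. These values of Sptbn4, Fgf14 and Cabp1 are those without GC subtraction, and whether their calls remain with it is not given here. With the GC trend subtracted, 0.800% of all genes passed in ventral Swim. In ventral Handling the HCN partner Kcne2 was higher by 4.94 in the authors' deposited table (implied SE 0.798, adjusted p 5.93e-07), 1 of 6 of its list. Kcne2 is also abundant in choroid plexus, and all 12 choroid plexus markers were higher in that comparison, with a median log2 change of 3.60; their part in it was not tested.

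The third question was whether treatment changes differed between ventral and dorsal hippocampus. The difference of the log2 changes was taken for each gene and tested against the root of the summed squares of the implied errors, with adjustment over all genes in both tables; if dorsal and ventral libraries came from the same mice, these errors are not exact. After Handling, none of 36 channel genes passed, where 0.0889% of all genes did; 2 channel genes and 2.49% of all genes had an unadjusted p under 0.05. After Restraint, 5 of 37 passed, all with the more positive change in ventral hippocampus, against 1.98% of all genes (1.75% in that direction). They were the 3 T-type genes, Cacna1b and Cacng8; the difference was 0.46 for Cacna1h (implied SE 0.124, adjusted p 0.0223) and 0.44 for Cacng8 (implied SE 0.0977, adjusted p 0.00752).

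After Swim, 10 of 37 channel genes passed, 8 more positive in ventral hippocampus and 2 more negative, against 10.2% of all genes (6.93% and 3.29%). Cacna1h changed by 0.35 in ventral and by -0.20 in dorsal hippocampus in the authors' deposited tables, a difference of 0.55 (implied SE 0.138, adjusted p 0.00458). Cacng8 changed by 0.24 and -0.28 in the authors' deposited tables, a difference of 0.52 (implied SE 0.110, adjusted p 0.00113). Cacnb4 went the other way in the authors' deposited tables, at -0.21 in ventral and 0.19 in dorsal hippocampus, a difference of -0.41 (implied SE 0.101, adjusted p 0.00421). The dorsal changes of these 3 genes did not pass by themselves.

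These regional differences did not pass once the GC trend was subtracted. None of the 5 genes of Restraint, where 0.0370% of all genes then passed, and none of the 10 of Swim remained, while Hcn2 passed in Swim alone, at -0.48 (adjusted p 0.00234), with 0.200% of all genes called. Spearman's rho between GC content and the regional difference after Swim was 0.76 over 13533 genes and 0.82 over the 37 channel genes.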

How the data were processed

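Poly(A)-enriched RNA libraries (Illumina TruSeq) were made by the authors from 5 samples in each of 12 groups, per the labels. The authors' deposited tables give, per the file headers, the mean estimated counts of each of 2 groups, a linear fold ratio, its log2 value, a p-value and a Benjamini-Hochberg adjusted p. Which test, aligner and counting program made them is not given in the sources used here. Bowtie 0.12.2 and mm8 stand without a role in the submitters' processing notes. The members and lists were chosen with earlier results of these data known.

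Of each table, 144 to 148 repeated gene entries were dropped. A gene passed at an adjusted p under 0.05 over all genes of a table. Standard errors were implied, by dividing the size of a log2 fold change by the normal quantile its p-value gives. Levels are group means scaled to a group total of 1000000 (CPM), length-scaled ones also per kilobase of the longest GENCODE M21 transcript. The change in ventral minus that in dorsal hippocampus was tested with a normal distribution and Benjamini-Hochberg adjustment over all genes. GC content is that of all transcripts of a gene, known for 99.76% of genes or more in each table, and its trend is a lowess curve (fraction 0.3, statsmodels 0.14.6). The other alternatives were a length trend, both trends, total-count scaling, a summed mean count of at least 200, and adjustment over distinct genes; a median-centred ratio was added after seeing the data. The computations ran in Python 3.11.15 and were tested on simulated data. Some channel genes enter the counts but are not reported here by name. Otherwise the genes named are those that passed in a comparison, the 3 highest length-scaled levels of each class, genes missing from a table, and partner genes that passed, up to 4 per list and comparison. Group totals of 19918572 to 25007858 estimated counts set the depth; no interval per library can be given.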

Additional observations from a re-analysis of the deposited data

Results flagged for a closer look

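The genes given here had treatment changes that differed between ventral and dorsal hippocampus by a test of the difference itself. After Restraint, the ventral minus dorsal log2 change was 0.25 for Cacna1b, 0.40 for Cacna1g, 0.46 for Cacna1h, 0.32 for Cacna1i and 0.44 for Cacng8. After Swim, it was 0.23 for Cacna1a, 0.40 for Cacna1g, 0.55 for Cacna1h, 0.37 for Cacna1i, 0.39 for Cacnb1, 0.36 for Cacnb3 and 0.52 for Cacng8, and it was negative for Cacnb4 at -0.41 and Scn1a at -0.33. The 3 T-type genes and Cacng8 are in both sets, but the comparisons of a region share its Homecage libraries. No gene of either set passed once the trend with transcript GC content was subtracted, and the cause was not tested.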

How the results depend on the processing

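The tables give group means and no values per library, so every result here rests on the authors' deposited group means, fold changes and p-values. No paired analysis was possible because the tables hold no values per library, and for the same reason no library could be left out in turn. With the GC trend subtracted, alone or together with the length trend, the count of channel genes that passed went from 2 to 0 in ventral Restraint and from 7 to 1 in ventral Swim; the count with a regional difference in change went from 5 to 0 after Restraint and from 10 to 1 after Swim. Total-count scaling gave 3 for the regional difference after Restraint. All other counts stayed within 1.5 times their main value, among them the Homecage regional count, at 22 to 27. Scn7a, Scn9a, Cacng6 and Hcn4 fell below the summed mean count of 200 in that comparison. Their regional calls were therefore not tested under that alternative. The count of 21 genes with the same regional direction in every treated group was 21 with median centring.

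Among the genes reported by name, directions that turned, with the GC trend alone and with both trends, were in Homecage hippocampus Cacnb3 (0.0618 and 0.0603) and Hcn2 (0.20 and 0.20), in ventral Swim Cacng8 (-0.0598 and -0.0540) and Hcn2 (-0.22 and -0.22), and in the regional difference Cacng8 after Restraint (-0.0375 and -0.0191) and, after Swim, Cacng8 (-0.0754 and -0.0829) and Hcn2 (-0.48 and -0.48). With the GC trend alone, Cacna1a was at -0.0039 and Cacna1i at -0.0071 in the difference after Swim. The cause was not tested.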
